A study of Mus musculus with 15 samples.

Results

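Chemokine ligands and chemokine receptors were followed in mouse liver across 5 groups that differ in diet and age. Their genes were taken by symbol from the annotation of the array, as every gene named Ccl or Cxcl with a number, Xcl1, Cx3cl1, and every receptor named Ccr, Cxcr, Cx3cr1 or Ackr. This rule uses no measured value, but it was set with earlier results of these data known. It gave 54 of the 19938 genes measured, of which 34 are named for ligands and 20 for receptors. The receptors are 9 CC receptors, 7 CXC and CX3C receptors and 4 atypical receptors. Each gene is represented by its brightest transcript cluster, the probe set that sums the probes along a gene, and a choice among several clusters was needed for Ccl19 and Ccl25 alone. There were 7 chemokine clusters with more than 1 symbol, which were left out because near-identical copies cannot be told apart on them, and Ccl21a and Ccl27a are therefore not analysed here.

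All mice were male C57BL/6J. From week 8 they received a basal diet, an atherogenic and high-fat diet (Ath+HF group), or the same diet with 3% branched-chain amino acids (Ath+HF+BCAA group), and livers were taken at 38w after 30 weeks on the diet or at 68w after 60 weeks. GeneChip Mouse Gene 1.0 ST arrays were run on total RNA of frozen liver, and the 15 arrays used here form 5 groups of 3, named basal diet 38w, Ath+HF 38w, Ath+HF 68w, Ath+HF+BCAA 38w and, for the last, Ath+HF+BCAA 68w. Whether the 3 arrays of a group come from separate mice is not stated in the sources, and p-values therefore reflect variation among arrays that may in part be technical. Basal diet was measured at 38w alone, so that age, time on the diet and processing batch cannot be told apart wherever 68w is set against 38w.

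Chemokines are small secreted or membrane-bound proteins that direct the migration of leukocytes along a gradient. They act on receptors coupled to inhibitory G proteins, while atypical receptors bind chemokines without this signal and remove them or hold them on the cell surface. In the liver, Kupffer cells, stellate cells, sinusoidal endothelium and hepatocytes all make chemokines, and Ccl2 with its receptor Ccr2 is known for bringing monocytes into the injured liver. Families are named by the spacing of their first cysteines, as CC, CXC, C and CX3C.

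Values are log2 signals, for which the authors used RMA, a method that corrects, scales and summarizes probe signals. A difference of 1 is a doubling of the signal, and levels of different genes are not compared. limma fitted all 15 arrays together, adjusted p-values by the Benjamini-Hochberg method over all 19938 genes, and a gene is called higher or lower at an adjusted p under 0.05. Medians of the arrays lay between 6.91 and 7.16. Of the 54 genes, 15 had a mean below 6.20, the 25th percentile of all genes, where signals lie near the background. Hepatocyte markers averaged between 13.23 and 13.51 in every array. In the Ath+HF+BCAA 68w group, replicate 2 stood apart, with a mean over 11 neutrophil markers of 8.07 against 6.60 and 6.50 in replicates 1 and 3, over 16 T and NK cell markers of 7.44 against 6.81 and 6.84, and over 7 B and plasma cell markers of 7.36 against 6.59 and 6.86. Groups are named by the labels of the arrays and each direction follows these labels. For many inflammatory and fibrosis genes at 68w, the direction by these labels is opposite to the one the study describes for BCAA. Mean signals in Ath+HF+BCAA 68w were 9.71 for Pdgfrb, 9.47 for Col1a2 and 7.86 for the tumor marker Epcam. In Ath+HF 68w they were 8.14, 8.04 and 6.11. The study's PCR instead found Pdgfrb and Col1a2 repressed with BCAA, and the study reports Epcam expression as repressed too. The study also describes many inflammation genes as rising from 38w to 68w. In the Ath+HF arrays, 13 of 14 macrophage and monocyte markers were lower at 68w. Whether the labels match the diets was not tested.

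Because several of these genes are known to be switched on by NF-kappaB, promoter stretches are shown for the genes whose patterns are set against each other below. They are upstream sequences from RefSeq (build GRCm38.p6), written along the gene 5′ to 3′. Capitals mark the NF-kappaB consensus and, in the first sequence, also the interferon element GAAANNGAAA near its 5′ end. Both strands were searched, and where matches overlap by all but 1 base the whole run is in capitals. For Cxcl10 the 250 bases before the transcription start are chr5:92348890-92349139 on the minus strand, and for its neighbor Cxcl9 they are chr5:92328080-92328329 on the minus strand, without a match to either motif. The neutrophil chemokines Cxcl1 (chr5:90891145-90891204), Cxcl2 (chr5:90903779-90903838) and Cxcl3 (chr5:90786001-90786060), which lie near each other, and Ccl20 (chr1:83116656-83116715) are on the plus strand, each with 60 bases around its match.
Cxcl10: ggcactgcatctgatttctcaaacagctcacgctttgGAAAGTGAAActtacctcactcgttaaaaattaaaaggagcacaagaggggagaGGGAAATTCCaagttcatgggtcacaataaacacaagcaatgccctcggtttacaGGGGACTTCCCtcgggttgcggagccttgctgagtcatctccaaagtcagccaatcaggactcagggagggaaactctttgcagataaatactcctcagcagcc
Cxcl9: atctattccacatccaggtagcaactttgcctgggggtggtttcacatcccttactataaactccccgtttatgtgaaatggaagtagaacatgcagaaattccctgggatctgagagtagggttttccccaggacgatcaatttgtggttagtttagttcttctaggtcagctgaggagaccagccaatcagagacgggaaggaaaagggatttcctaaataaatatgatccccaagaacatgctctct
Cxcl1: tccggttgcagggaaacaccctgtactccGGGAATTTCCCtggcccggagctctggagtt
Cxcl2: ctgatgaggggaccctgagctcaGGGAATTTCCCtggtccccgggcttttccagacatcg
Cxcl3: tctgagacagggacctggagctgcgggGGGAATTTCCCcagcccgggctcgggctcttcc
Ccl20: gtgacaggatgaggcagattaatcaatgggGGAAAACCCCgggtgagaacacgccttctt
The same 11 capital letters stand before Cxcl1, Cxcl2 and Cxcl3. Windows of 300 bases around the start, 250 before and 50 after it, were available for 40 of the 54 genes. The NF-kappaB consensus was found in 11 of these 40 genes (27.5%), against 9.55% of 27025 genes of the table. They were Ackr2, Ccl1, Ccl9, Ccl20, Ccr1, Ccr3, Ccr6, Cxcl1, Cxcl2, Cxcl3 and Cxcl10. GAAANNGAAA was found in 3 genes, Ccl19, Cxcl10 and Cxcl14 (7.5% against 3.99%), and TTCNNNGAA, an element of STAT factors, in Ccl17, Ccr6 and Cxcl14 (7.5% against 9.55%). A match describes the letters of the window and shows no binding.

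The mean was highest in the Ath+HF+BCAA 68w group for 27 of the 54 genes and in the Ath+HF 68w group for 15, and it was lowest in the basal diet group for 22. The same was not counted over all genes, so these counts have no background and are not read as particular to chemokines. Array medians also differed, at 7.10 to 7.16 in the 68w arrays and 6.91 to 6.99 in the basal diet arrays. Of the 54, 40 were called in at least 1 of the 9 comparisons (74.1%), a share near the 72.3% of all genes. The remaining 14 were Ackr1, Ackr3, Ccl11, Ccl17, Ccl24, Ccr4, Ccr6, Ccr8, Ccr9, Cxcl5, Cxcl12, Cxcl13, Cxcr5 and Xcl1. These are signals of bulk liver, in which fewer cells of a type and less RNA per cell cannot be told apart.

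**Figure D1:**
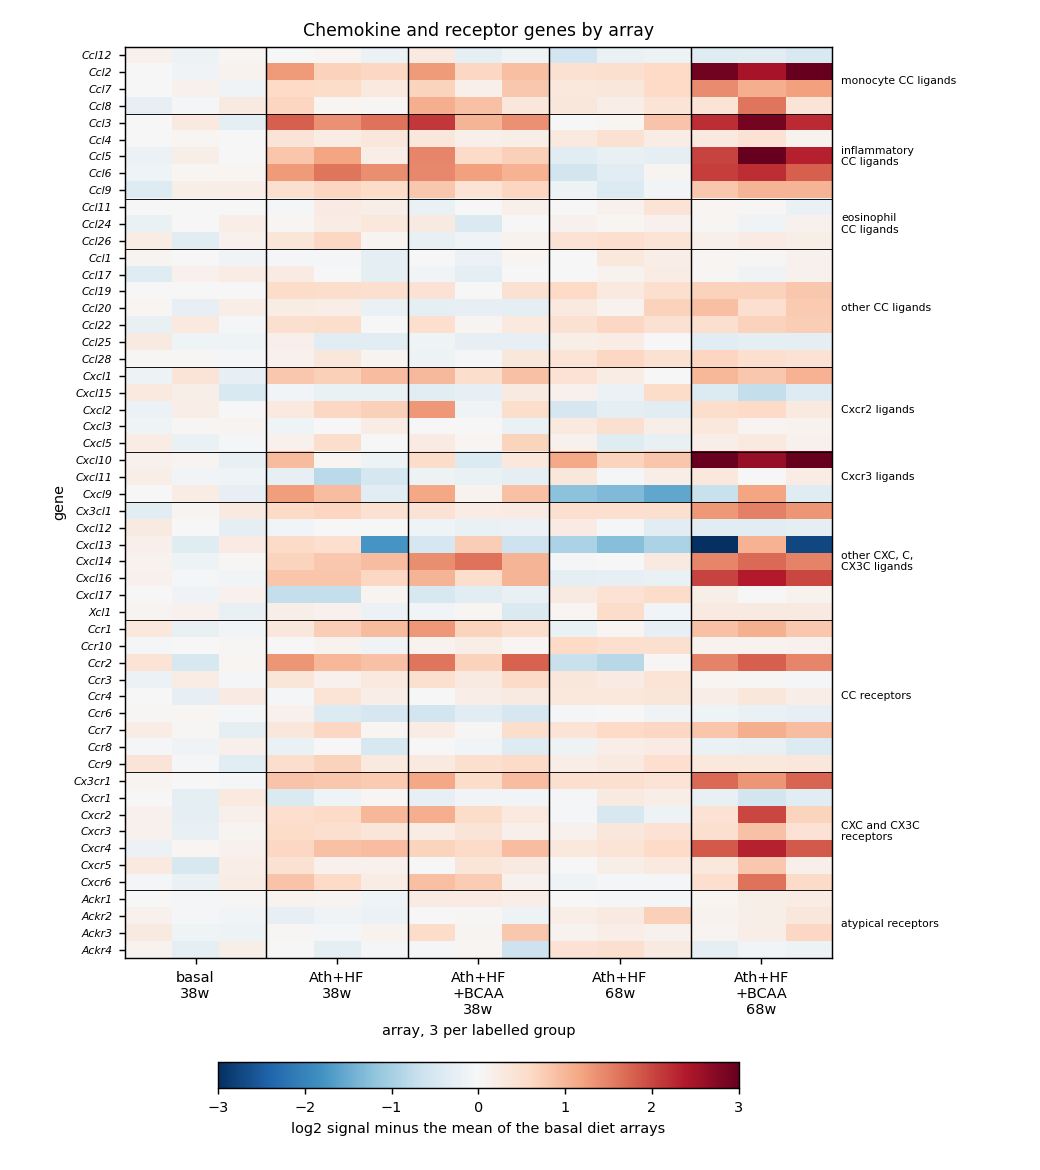
Log2 signal of each of the 54 genes (rows, by family) in each of the 15 arrays (columns, 3 per labelled group), drawn as the difference from the mean of the basal diet arrays, with red above and blue below it and the end colors also for values beyond the scale. The reddest block, with Ccl2, Ccl3, Ccl5, Ccl6, Cxcl10, Cxcl16 and Cxcr4, lies in the Ath+HF+BCAA 68w columns, while the Ath+HF 68w columns are pale or blue for Ccl5, Ccl6, Ccr2 and Cxcl9.

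At 38w, the Ath+HF diet was accompanied by higher chemokine signals. Against basal diet, 11 of the 54 genes were higher in the Ath+HF group (20.4%, against 3.05% of all genes) and 0 were lower (1.18% of all genes). The 11 were Ccl2, Ccl3, Ccl6, Ccl19, Cxcl1, Cxcl14, Cxcl16, Cx3cl1, Ccr2, Cxcr4 and Cx3cr1, and the median log2 difference was 0.26 over the 54 genes and 0.00 over all genes. In the Ath+HF+BCAA group 12 were higher (22.2%, against 3.67% of all genes) and 0 lower (1.82% of all genes), with a median of 0.24 against -0.01. Ccl9, Ccr1 and Ccr3 were called here and not in the other comparison, and Ccl19 and Cx3cl1 the other way round. Both comparisons use the same 3 basal diet arrays. Leaving out 1 array at a time gave 8 to 12 higher genes in the Ath+HF group, with the fewest without its replicate 1 or 2, and 7 to 17 in the Ath+HF+BCAA group, with the fewest without its replicate 1 and the most without its replicate 2.

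Between the Ath+HF+BCAA and Ath+HF groups at 38w, 0 genes were called in either direction by limma (0% and 0% of all genes). Of the 54, 6 had an unadjusted p under 0.05 in limma, beside 1528 of all 19938 genes. The lowest adjusted p among the 54 was 0.39, and the methods' analysis of variance also called 0. The largest differences were 0.54 for Cxcl14 (adjusted p = 0.39) and 0.53 for Ccl8 (adjusted p = 0.695). The 95% interval of the difference stayed within 1 on the log2 scale for 51 of the 54 genes and reached from -1.65 to 1.84 for Cxcl13.

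At 68w the labelled groups were far apart. In the Ath+HF+BCAA group, 19 genes were higher than in the Ath+HF group (35.2%, against 19.8% of all genes) and 6 were lower (11.1%, against 16.4% of all genes). The median was 0.17 over the 54 genes and -0.09 over all genes. Without replicate 2 of the Ath+HF+BCAA 68w group, 18 were higher and 3 lower. Leaving out 1 array at a time gave 18 to 19 higher and 3 to 5 lower, with 3 lower also without replicate 1 of this group or replicate 2 of the Ath+HF 68w group. The 19 were Ccl2, Ccl3, Ccl5, Ccl6, Ccl7, Ccl9, Cxcl1, Cxcl2, Cxcl9, Cxcl10, Cxcl14, Cxcl16, Cx3cl1, Ccr1, Ccr2, Cxcr2, Cxcr4, Cxcr6 and Cx3cr1, and the 6 were Ccl25, Cxcl15, Ccr3, Ccr10, Cxcr1 and Ackr4. A test of whether the BCAA difference itself differed between 68w and 38w called 18 genes higher at 68w (33.3%, against 12.9% of all genes) and 2 lower (3.70%, against 7.67% of all genes). Against basal diet, 25 genes were higher in the Ath+HF+BCAA 68w group (46.3%, against 22.9% of all genes) and 1 was lower (1.85%, against 21.8% of all genes), and 21 and 1 without replicate 2. With array medians set equal, these 25 and 1 became 23 and 7.

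**Figure D2:**
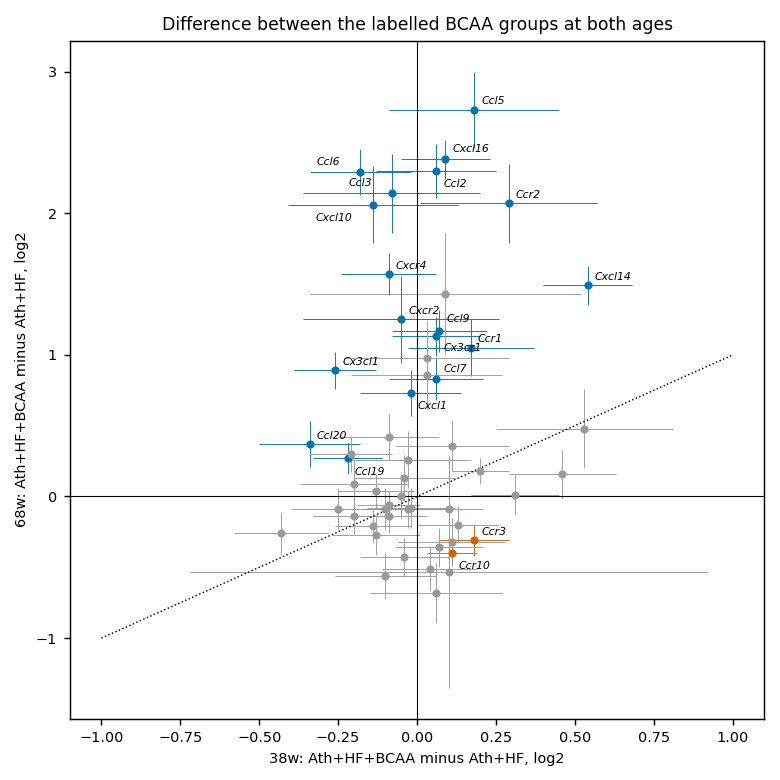
Difference between the groups labelled Ath+HF+BCAA and Ath+HF for the 54 genes, at 38w (horizontal, log2) and 68w (vertical, log2), with standard errors as bars, unequal axis scales and the dotted line for equal differences. The 18 genes in blue and the 2 in orange differed between the ages in the test, and the blue points spread from 0.27 for Ccl19 to 2.73 for Ccl5 at 68w while every point lies between -0.43 and 0.54 at 38w.

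The Ath+HF group itself differed between the ages in both directions. At 68w, 13 genes were lower than at 38w (24.1%, near the 20.0% of all genes) and 6 were higher (11.1%, against 17.6% of all genes). These were 17 and 4 with array medians set equal. The 6 were Ackr2, Ackr4, Ccl1, Ccr10, Cxcl11 and Cxcl17. Against basal diet, 16 genes were higher in the Ath+HF 68w group (29.6%, against 19.0% of all genes) and 1 was lower (1.85%, against 19.1% of all genes), but this split depended on the scaling. With array medians set equal it was 1 higher and 4 lower, and with quantile normalization 4 higher and 3 lower. Setting medians equal moved the median over all genes by -0.19 here, and none of the 17 called genes changed sign under either scaling. Leaving out 1 array at a time gave 7 to 13 higher, with 7 without basal diet replicate 3, 8 and 9 without Ath+HF 68w replicates 2 and 3, and 10 without basal diet replicate 1, and Ccr10 was the only call of the 17 that was kept in every alternative tried. In the Ath+HF+BCAA group, 15 genes were higher at 68w than at 38w (27.8%, against 20.5% of all genes) and 1 was lower (1.85%, against 18.3% of all genes), or 13 and 3 with medians set equal and 14 and 3 without replicate 2.

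**Figure D3:**
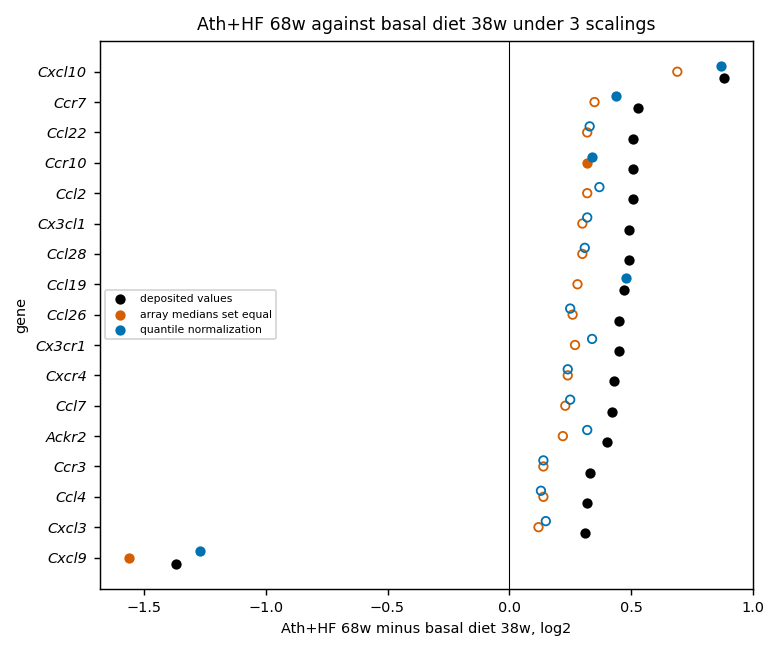
Log2 difference of Ath+HF 68w from basal diet 38w for the 17 genes called in the deposited values (black), with array medians set equal (orange) and with quantile normalization (blue), filled where the adjusted p from limma was under 0.05. With medians set equal, Ccr10 at 0.32 and Cxcl9 at -1.56 are the filled points, and every gene keeps its side of 0.

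Ccl2, Ccl7 and Ccl12 encode ligands of Ccr2, which attract monocytes, and Ccl8 was paired here with both Ccr2 and Ccr8. Ccl2 had signals of 7.01, 6.92 and 7.13 in the basal diet arrays, 8.30, 7.72 and 7.64 in Ath+HF 38w, 8.29, 7.63 and 7.93 in Ath+HF+BCAA 38w, 7.48, 7.50 and 7.61 in Ath+HF 68w, and 9.91, 9.50 and 10.07 in Ath+HF+BCAA 68w. All arrays of the 4 groups on the Ath+HF diet lay above the basal diet arrays, and the Ath+HF+BCAA 68w arrays lay above all others. Ccl2 was higher with BCAA at 68w by 2.30 (standard error 0.19, adjusted p = 1.57e-07), and above basal diet by 0.87 (standard error 0.19, adjusted p = 0.0151) in the Ath+HF group and 0.93 (standard error 0.19, adjusted p = 0.00861) in the Ath+HF+BCAA group at 38w. The call in the Ath+HF 38w group was lost without its replicate 1 (0.66, adjusted p = 0.0668) or without basal diet replicate 2 (0.82, adjusted p = 0.0512). Its receptor Ccr2, which marks inflammatory monocytes, had signals of 6.70, 5.81 and 6.35 in the basal diet arrays, 7.61, 7.28 and 7.17 in Ath+HF 38w, 7.89, 6.98 and 8.05 in Ath+HF+BCAA 38w, 5.63, 5.46 and 6.32 in Ath+HF 68w, and 7.78, 8.08 and 7.75 in Ath+HF+BCAA 68w. Ath+HF 68w overlapped with basal diet, and Ath+HF+BCAA 68w overlapped with Ath+HF+BCAA 38w but lay above Ath+HF 38w. Ccr2 was higher with BCAA at 68w by 2.07 (standard error 0.28, adjusted p = 2.74e-05) and fell by 1.55 (standard error 0.28, adjusted p = 0.000635) between 38w and 68w in the Ath+HF group. Against basal diet, Ccr2 was higher in the Ath+HF 38w group by 1.06 (standard error 0.28, adjusted p = 0.0417), a call lost when any 1 of its 3 arrays or basal diet replicate 2 or 3 was left out (adjusted p of 0.0655 to 0.14), and in the Ath+HF+BCAA 38w group by 1.35 (standard error 0.28, adjusted p = 0.00957), lost without its replicate 1 (adjusted p = 0.0504).

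Ccl7 followed Ccl2 at smaller differences, with 0.83 between the 68w groups (adjusted p = 0.000546) and 1.24 between Ath+HF+BCAA 68w and basal diet (adjusted p = 8.99e-06). Ccl8 was above basal diet in the Ath+HF+BCAA 68w group by 0.80 (adjusted p = 0.0286), and by 0.40 without replicate 2 (adjusted p = 0.171). That array read 6.42, while replicates 1 and 3 read 5.21 and 5.20. The call was also lost without basal diet replicate 1 (adjusted p = 0.0984) or 2 (adjusted p = 0.0632). Ccl12 was dim, at 4.74 to 5.59, and was the 1 gene lower in this comparison (-0.40, adjusted p = 0.0354). This call was lost when any 1 of the 3 Ath+HF+BCAA 68w arrays or basal diet replicate 1 or 3 was left out (adjusted p of 0.0632 to 0.112).

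Ccl3, Ccl5, Ccl6 and Ccl9 bind Ccr1, a receptor of monocytes and neutrophils. Ccl3 had signals of 6.76, 7.04 and 6.45 in the basal diet arrays, 8.54, 8.11 and 8.37 in Ath+HF 38w, 8.88, 7.77 and 8.13 in Ath+HF+BCAA 38w, 6.73, 6.80 and 7.61 in Ath+HF 68w, and 8.96, 9.62 and 8.99 in Ath+HF+BCAA 68w. The 38w arrays on the Ath+HF diet lay above all basal diet and Ath+HF 68w arrays, and the Ath+HF+BCAA 68w arrays lay above all others. The difference from basal diet was 1.59 (standard error 0.28, adjusted p = 0.00388) in Ath+HF 38w and 1.51 (standard error 0.28, adjusted p = 0.00469) in Ath+HF+BCAA 38w, and the 68w groups differed by 2.14 (standard error 0.28, adjusted p = 1.95e-05). Ccl5, which T cells, NK cells and macrophages make, had signals of 8.46, 8.81 and 8.64 in the basal diet arrays, 9.48, 9.83 and 8.83 in Ath+HF 38w, 10.11, 9.22 and 9.35 in Ath+HF+BCAA 38w, 8.30, 8.41 and 8.37 in Ath+HF 68w, and 10.66, 11.64 and 10.98 in Ath+HF+BCAA 68w. All Ath+HF 68w arrays lay below the basal diet arrays and all Ath+HF+BCAA 68w arrays above every other array. This gave the largest difference among the 54 genes between the 68w groups, 2.73 (standard error 0.27, adjusted p = 1.17e-06), or 2.46 without replicate 2. At 38w, Ccl5 did not pass the test against basal diet in Ath+HF (0.74, adjusted p = 0.152) or Ath+HF+BCAA (0.92, adjusted p = 0.0593).

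Ccl6, a ligand found in rodents that myeloid cells make, had signals of 8.53, 8.72 and 8.71 in the basal diet arrays, 9.93, 10.25 and 10.04 in Ath+HF 38w, 10.10, 9.87 and 9.70 in Ath+HF+BCAA 38w, 8.09, 8.34 and 8.73 in Ath+HF 68w, and 10.72, 10.86 and 10.44 in Ath+HF+BCAA 68w. Here too the 38w arrays on the Ath+HF diet lay above basal diet, Ath+HF 68w overlapped with basal diet, and Ath+HF+BCAA 68w lay above all others. Ccl6 differed between the 68w groups by 2.29 (standard error 0.16, adjusted p = 3.34e-08) and fell by 1.69 (standard error 0.16, adjusted p = 3.58e-06) from 38w to 68w in the Ath+HF group. For Ccl9, the difference between the 68w groups was 1.17 (adjusted p = 1.82e-05), and for Ccr1 it was 1.05 (adjusted p = 0.000613). Ccr1 lay between 4.62 and 6.18 in all arrays, which is below the 25th percentile of all genes. Ccl9 and Ccr1 were above basal diet in the Ath+HF+BCAA 38w group by 0.62 and 0.84, and both calls were lost without replicate 1 of that group (adjusted p of 0.102 and 0.0879). That for Ccl9 was also lost without its replicate 3 or basal diet replicate 1, and that for Ccr1 without basal diet replicate 2 or 3. Ccl4, which activated macrophages and T cells make, lay between 6.58 and 7.06 in all arrays, with a difference of -0.06 between the 68w groups (adjusted p = 0.682). Its excess over basal diet in Ath+HF+BCAA 68w (0.27, adjusted p = 0.0424) became 0.19 without replicate 2 (adjusted p = 0.194) and was also lost without replicate 1 or any 1 basal diet array.

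**Figure D4:**
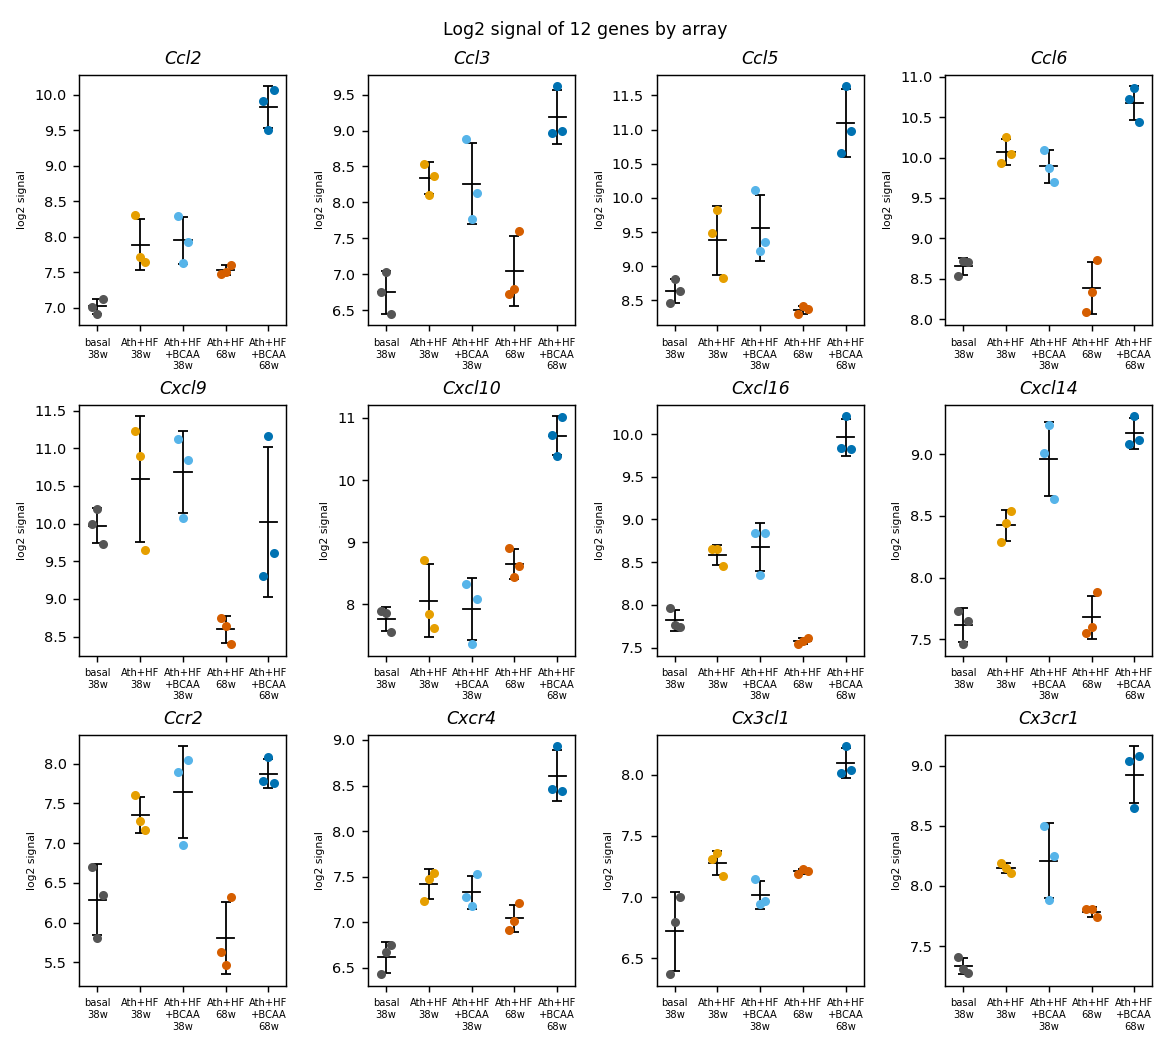
Log2 signal of 12 chemokine and receptor genes (vertical, scale differs by gene) in each array (points) of the 5 labelled groups, with the mean as a line and the SD over 3 arrays as a bar. Ccl2, Cxcl10, Cxcl16, Cxcr4, Cx3cl1 and Cx3cr1 are highest in every Ath+HF+BCAA 68w array, and Cxcl9 is lowest in every Ath+HF 68w array.

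Cxcl1, Cxcl2, Cxcl3 and Cxcl5 bind Cxcr2 and attract neutrophils. Cxcl1 had signals of 7.56, 8.09 and 7.47 in the basal diet arrays, 8.52, 8.42 and 8.63 in Ath+HF 38w, 8.68, 8.23 and 8.59 in Ath+HF+BCAA 38w, 8.15, 7.93 and 7.69 in Ath+HF 68w, and 8.71, 8.51 and 8.75 in Ath+HF+BCAA 68w. Both 38w groups on the Ath+HF diet and the Ath+HF+BCAA 68w group lay above the basal diet and Ath+HF 68w arrays, which overlapped. Cxcl1 differed between the 68w groups by 0.73 (standard error 0.16, adjusted p = 0.0025) and from basal diet by 0.81 (standard error 0.16, adjusted p = 0.00999) in Ath+HF 38w. Its fall of 0.60 in the Ath+HF group from 38w to 68w (adjusted p = 0.0104) was lost without replicate 3 of Ath+HF 68w (adjusted p = 0.0555). Cxcl2, the neighbor of Cxcl1 with the same capital letters in the stretch shown, differed by 0.86 between the 68w groups (adjusted p = 0.0119). Cxcl3, which has the same letters too, was not called in that comparison (-0.14). Cxcr2 had signals of 5.62, 5.19 and 5.64 in the basal diet arrays, 5.98, 6.06 and 6.48 in Ath+HF 38w, 6.57, 6.03 and 5.77 in Ath+HF+BCAA 38w, 5.45, 5.01 and 5.33 in Ath+HF 68w, and 5.92, 7.48 and 6.15 in Ath+HF+BCAA 68w. The Ath+HF+BCAA 68w group was led by replicate 2, the array with the highest neutrophil markers, and the other replicates lay within the range of the 38w arrays on the Ath+HF diet. Cxcr2 differed between the 68w groups by 1.25 (standard error 0.31, adjusted p = 0.0055), or 0.77 without replicate 2 (adjusted p = 0.0193), and from basal diet by 1.03, or 0.55 without replicate 2 (adjusted p = 0.069) and 0.89 without basal diet replicate 2 (adjusted p = 0.0561). Its fall of 0.91 in the Ath+HF group from 38w to 68w (adjusted p = 0.0326) was lost under 4 of 6 leave-outs, those of replicates 2 and 3 of either group (adjusted p of 0.0542 to 0.112).

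Cxcl3, at 5.23 to 5.89, was above basal diet in the Ath+HF 68w group (0.31, adjusted p = 0.0456), a call lost under 5 of the 6 leave-outs. Cxcl15, a mouse neutrophil chemokine first known from lung, was lower with BCAA at 68w (-0.68, adjusted p = 0.0201), and so was Cxcr1 (-0.51, adjusted p = 0.0153). Both calls were lost without replicate 2 of Ath+HF+BCAA 68w (-0.58, adjusted p = 0.0884, and -0.42, adjusted p = 0.0769). The call was also lost without replicate 3 of Ath+HF 68w for Cxcl15 (-0.49, adjusted p = 0.108) and without its replicate 2 for Cxcr1 (-0.44, adjusted p = 0.0649). Over the neutrophil markers, 3 of 11 were higher in Ath+HF+BCAA 68w than in Ath+HF 68w and 0 lower, with or without replicate 2, a share near the 19.8% of all genes, and 5 were higher without replicate 3 of Ath+HF+BCAA 68w. Their part in these differences was not tested.

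The ligands of Cxcr3 split. Cxcl9 and Cxcl10 are induced by interferons and attract T and NK cells through Cxcr3. Cxcl11 is grouped with them by name. The RefSeq annotation used here does not list Cxcl11 as protein-coding, so its signal is described as RNA alone. Cxcl10 had signals of 7.89, 7.86 and 7.55 in the basal diet arrays, 8.72, 7.84 and 7.62 in Ath+HF 38w, 8.32, 7.36 and 8.09 in Ath+HF+BCAA 38w, 8.91, 8.44 and 8.61 in Ath+HF 68w, and 10.73, 10.39 and 11.02 in Ath+HF+BCAA 68w. All Ath+HF+BCAA 68w arrays lay above all others, and Ath+HF 68w lay above basal diet but overlapped with Ath+HF 38w. Cxcl10 differed by 2.06 (standard error 0.27, adjusted p = 2.19e-05) between the 68w groups and by 2.79 (standard error 0.27, adjusted p = 2.3e-06) between 68w and 38w with BCAA. Cxcl9, which lies near Cxcl10 on chromosome 5 with Art3 between them, had signals of 9.99, 10.20 and 9.73 in the basal diet arrays, 11.23, 10.90 and 9.65 in Ath+HF 38w, 11.12, 10.08 and 10.85 in Ath+HF+BCAA 38w, 8.75, 8.64 and 8.40 in Ath+HF 68w, and 9.30, 11.16 and 9.61 in Ath+HF+BCAA 68w. The Ath+HF 68w arrays were below all others, while the Ath+HF+BCAA 68w group held 1 high array, replicate 2, and a pair below basal diet. Against basal diet at 38w, the Ath+HF 68w group was thus higher for Cxcl10 by 0.88 (standard error 0.27, adjusted p = 0.0189) and lower for Cxcl9, which fell by 1.37 (standard error 0.43, adjusted p = 0.0206). The call for Cxcl10 was lost without basal diet replicate 3 (0.77, adjusted p = 0.0655), without Ath+HF 68w replicate 1 (0.75, adjusted p = 0.0689) or with medians set equal (0.69). That for Cxcl9 was lost without basal diet replicate 2 (-1.26, adjusted p = 0.0614) or Ath+HF 68w replicate 3 (-1.27, adjusted p = 0.0673). The sign of neither changed. Cxcl9 was higher with BCAA at 68w by 1.43 (standard error 0.43, adjusted p = 0.017), which became 0.86 without replicate 2 (adjusted p = 0.1) and 1.33 without replicate 3 of Ath+HF 68w (adjusted p = 0.0575).

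Cxcr3 had signals of 7.21, 6.84 and 7.15 in the basal diet arrays, 7.61, 7.55 and 7.44 in Ath+HF 38w, 7.30, 7.45 and 7.22 in Ath+HF+BCAA 38w, 7.20, 7.42 and 7.50 in Ath+HF 68w, and 7.55, 7.94 and 7.51 in Ath+HF+BCAA 68w. It was called in 1 comparison, Ath+HF+BCAA 68w against basal diet (0.60, standard error 0.13, adjusted p = 0.00163), where no arrays overlapped. Cxcl11 ranged from 7.26 to 8.40, with the lowest mean in Ath+HF 38w, and was higher at 68w in both the Ath+HF group (0.69, adjusted p = 0.00167) and the Ath+HF+BCAA group (0.40, adjusted p = 0.0361). The latter call was lost when any 1 Ath+HF+BCAA array other than replicate 2 of 68w was left out (adjusted p of 0.0552 to 0.135).

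Cxcl16 is a membrane-bound chemokine that also takes up oxidized lipoprotein, and its receptor Cxcr6 is found on T and NKT cells. Cxcl16 had signals of 7.96, 7.76 and 7.74 in the basal diet arrays, 8.66, 8.65 and 8.45 in Ath+HF 38w, 8.84, 8.35 and 8.84 in Ath+HF+BCAA 38w, 7.54, 7.58 and 7.61 in Ath+HF 68w, and 9.84, 10.21 and 9.83 in Ath+HF+BCAA 68w. The groups formed separate steps, with Ath+HF 68w lowest, then basal diet, then both 38w groups on the Ath+HF diet, and Ath+HF+BCAA 68w on top. Cxcl16 had the smallest adjusted p of the 54 genes between the 68w groups (2.38, standard error 0.14, adjusted p = 6.84e-09), and Ath+HF 68w was not called against basal diet (-0.24, adjusted p = 0.172). Cxcr6 had signals of 6.16, 6.01 and 6.43 in the basal diet arrays, 7.05, 6.80 and 6.43 in Ath+HF 38w, 7.10, 6.95 and 6.33 in Ath+HF+BCAA 38w, 6.06, 6.14 and 6.16 in Ath+HF 68w, and 6.70, 7.83 and 6.77 in Ath+HF+BCAA 68w. Replicate 2 of Ath+HF+BCAA 68w was the highest array, and the other arrays of that group overlapped with the 38w groups on the Ath+HF diet. The difference between the 68w groups was 0.98 (standard error 0.26, adjusted p = 0.00795), or 0.61 without replicate 2 (adjusted p = 0.0421), and that from basal diet was 0.90, or 0.53 without replicate 2 (adjusted p = 0.059).

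Cx3cl1 (fractalkine), a membrane-bound chemokine of endothelium and epithelium, had signals of 6.37, 6.80 and 7.00 in the basal diet arrays, 7.31, 7.36 and 7.17 in Ath+HF 38w, 7.15, 6.94 and 6.97 in Ath+HF+BCAA 38w, 7.19, 7.23 and 7.21 in Ath+HF 68w, and 8.01, 8.23 and 8.04 in Ath+HF+BCAA 68w. The Ath+HF+BCAA 68w arrays lay above all others. Cx3cl1 differed by 0.89 (standard error 0.13, adjusted p = 7.64e-05) between the 68w groups. In Ath+HF 38w it was above basal diet by 0.56 (adjusted p = 0.0257), a call lost without basal diet replicate 1 (0.38, adjusted p = 0.0831), Ath+HF 38w replicate 1 (adjusted p = 0.0783) or its replicate 2 (adjusted p = 0.103). Its receptor Cx3cr1, found on monocytes and tissue macrophages, had signals of 7.41, 7.31 and 7.28 in the basal diet arrays, 8.19, 8.15 and 8.11 in Ath+HF 38w, 8.50, 7.88 and 8.25 in Ath+HF+BCAA 38w, 7.81, 7.81 and 7.74 in Ath+HF 68w, and 9.04, 8.65 and 9.08 in Ath+HF+BCAA 68w. All 4 groups on the Ath+HF diet lay above basal diet, and Ath+HF+BCAA 68w lay above the rest. Cx3cr1 differed by 1.13 (standard error 0.14, adjusted p = 1.07e-05) between the 68w groups and by 0.82 (standard error 0.14, adjusted p = 0.0031) between Ath+HF 38w and basal diet. It was lower at 68w than at 38w in the Ath+HF group (-0.37, adjusted p = 0.0496), a call lost when any 1 of these 6 arrays was left out (adjusted p of 0.0808 to 0.126).

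Cxcl12, the ligand of Cxcr4 and Ackr3 that holds leukocytes in tissues, had signals of 10.58, 10.32 and 10.05 in the basal diet arrays, 10.24, 10.30 and 10.32 in Ath+HF 38w, 10.19, 10.13 and 10.14 in Ath+HF+BCAA 38w, 10.56, 10.29 and 10 in Ath+HF 68w, and 10.01, 9.98 and 10.06 in Ath+HF+BCAA 68w. Ath+HF+BCAA 68w lay below both 38w groups on the Ath+HF diet, and Ath+HF+BCAA 38w below Ath+HF 38w, but all lay within a narrow range, and it was called in no comparison. Without replicate 3 of Ath+HF 68w the 68w groups differed by -0.41 (adjusted p = 0.0311), and without basal diet replicate 3 the difference of Ath+HF+BCAA 68w from basal diet was -0.43 (adjusted p = 0.0186). Its receptor Cxcr4, found on most leukocytes, had signals of 6.43, 6.67 and 6.75 in the basal diet arrays, 7.23, 7.48 and 7.54 in Ath+HF 38w, 7.28, 7.18 and 7.53 in Ath+HF+BCAA 38w, 6.92, 7.01 and 7.21 in Ath+HF 68w, and 8.46, 8.93 and 8.44 in Ath+HF+BCAA 68w. All arrays on the Ath+HF diet lay above basal diet, and those of Ath+HF+BCAA 68w lay above all others. Cxcr4 differed by 1.57 (standard error 0.15, adjusted p = 7.22e-07) between the 68w groups and by 1.28 (standard error 0.15, adjusted p = 9.67e-06) between 68w and 38w with BCAA. Cxcl14, a chemokine of epithelium and fibroblasts, had signals of 7.73, 7.46 and 7.65 in the basal diet arrays, 8.29, 8.44 and 8.54 in Ath+HF 38w, 9.01, 9.24 and 8.64 in Ath+HF+BCAA 38w, 7.55, 7.60 and 7.88 in Ath+HF 68w, and 9.08, 9.31 and 9.12 in Ath+HF+BCAA 68w. Both 38w groups on the Ath+HF diet lay above basal diet, Ath+HF 68w overlapped with basal diet, and Ath+HF+BCAA 68w overlapped with Ath+HF+BCAA 38w. Cxcl14 differed by 1.49 (standard error 0.14, adjusted p = 8.46e-07) between the 68w groups and from basal diet by 1.35 (standard error 0.14, adjusted p = 9.89e-05) in Ath+HF+BCAA 38w.

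Cxcl13, which draws B cells through Cxcr5, had signals of 9.38, 8.86 and 9.47 in the basal diet arrays, 9.81, 9.73 and 7.47 in Ath+HF 38w, 8.73, 9.97 and 8.60 in Ath+HF+BCAA 38w, 8.28, 7.96 and 8.28 in Ath+HF 68w, and 6.15, 10.27 and 6.51 in Ath+HF+BCAA 68w. It had the widest spread within a group among the 54 genes, with SDs of 1.33 in Ath+HF 38w and 2.28 in Ath+HF+BCAA 68w. It was called in no comparison, but without replicate 2 of Ath+HF+BCAA 68w, which also had the highest B and plasma cell markers, it was lower than basal diet (-2.90, adjusted p = 0.000785) and the 68w groups differed by -1.85 (adjusted p = 0.0214). Cxcr5 had signals of 5.72, 4.94 and 5.63 in the basal diet arrays, 5.89, 5.56 and 5.57 in Ath+HF 38w, 5.44, 5.80 and 5.71 in Ath+HF+BCAA 38w, 5.45, 5.60 and 5.72 in Ath+HF 68w, and 5.75, 6.23 and 5.58 in Ath+HF+BCAA 68w. These overlapped between all groups, and Cxcr5 was called in no comparison.

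Ccl19 and its receptor Ccr7 guide dendritic cells and naive T cells into lymphoid tissue. Ccl19 had signals of 8.08, 8.08 and 8.08 in the basal diet arrays, 8.62, 8.60 and 8.59 in Ath+HF 38w, 8.52, 8.09 and 8.53 in Ath+HF+BCAA 38w, 8.67, 8.38 and 8.59 in Ath+HF 68w, and 8.77, 8.78 and 8.90 in Ath+HF+BCAA 68w. The basal diet arrays were lowest, with replicate 2 of Ath+HF+BCAA 38w close to them, and Ath+HF+BCAA 68w lay above all others. Ccl19 was above basal diet by 0.52 (standard error 0.11, adjusted p = 0.0157) in Ath+HF 38w, a call lost without that group's replicate 1 (adjusted p = 0.0527) or 2 (adjusted p = 0.0567), and by 0.74 (standard error 0.11, adjusted p = 8.01e-05) in Ath+HF+BCAA 68w. Mouse Ccl19 has near-identical copies, and its 5 clusters, which gave alike values, may share signal between them. Ccr7 had signals of 7.55, 7.36 and 7.04 in the basal diet arrays, 7.66, 7.94 and 7.39 in Ath+HF 38w, 7.54, 7.35 and 7.85 in Ath+HF+BCAA 38w, 7.72, 7.91 and 7.93 in Ath+HF 68w, and 8.16, 8.42 and 8.25 in Ath+HF+BCAA 68w. Ath+HF+BCAA 68w lay above all other arrays, and the difference from basal diet was 0.95 (standard error 0.16, adjusted p = 0.000175). The 68w groups did not differ past the test for Ccl19 (0.27, adjusted p = 0.076) or Ccr7 (0.42, adjusted p = 0.0525).

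Ccl20, whose receptor Ccr6 is carried by B cells and Th17 cells, had signals of 6.48, 6.16 and 6.60 in the basal diet arrays, 6.63, 6.61 and 6.21 in Ath+HF 38w, 6.12, 6.17 and 6.14 in Ath+HF+BCAA 38w, 6.71, 6.52 and 7.09 in Ath+HF 68w, and 7.32, 6.92 and 7.19 in Ath+HF+BCAA 68w. Ath+HF+BCAA 68w lay above all 38w arrays, and Ath+HF 68w overlapped with basal diet. Ccl20 was higher at 68w than at 38w with BCAA by 1.0 (standard error 0.16, adjusted p = 0.000178). Ccr6 had signals of 6.57, 6.58 and 6.46 in the basal diet arrays, 6.66, 6.13 and 6.03 in Ath+HF 38w, 5.99, 6.21 and 6.02 in Ath+HF+BCAA 38w, 6.46, 6.54 and 6.43 in Ath+HF 68w, and 6.39, 6.33 and 6.29 in Ath+HF+BCAA 68w. No comparison called it, and its highest mean was in the basal diet group.

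Ccl22, which attracts T cells through Ccr4, had signals of 5.60, 6.12 and 5.75 in the basal diet arrays, 6.30, 6.35 and 5.83 in Ath+HF 38w, 6.32, 5.91 and 6.12 in Ath+HF+BCAA 38w, 6.28, 6.44 and 6.27 in Ath+HF 68w, and 6.31, 6.52 and 6.55 in Ath+HF+BCAA 68w. Basal diet lay below both 68w groups. Ccl22 was higher than basal diet by 0.51 (standard error 0.16, adjusted p = 0.0191) in Ath+HF 68w, which was lost without basal diet replicate 1 (adjusted p = 0.0859) or 3 (adjusted p = 0.0565) or Ath+HF 68w replicate 2 (adjusted p = 0.0706), and by 0.64 (standard error 0.16, adjusted p = 0.00358) in Ath+HF+BCAA 68w. Ccl28, a mucosal ligand of Ccr10, was above basal diet by 0.49 (adjusted p = 0.00566) and 0.53 (adjusted p = 0.00231) in the same groups. Its call in Ath+HF 68w was lost with array medians set equal (0.30, adjusted p = 0.0634) or quantile normalization (0.31, adjusted p = 0.0658). Ccl28 was dim, with a mean of 5.95 over all arrays. Ccl11, Ccl24 and Ccl26, grouped here as ligands of the eosinophil receptor Ccr3 though not its only ones, gave 1 call. It was for Ccl26 in Ath+HF 68w against basal diet (0.45, adjusted p = 0.0279). This call was lost without basal diet replicate 2 (0.28, adjusted p = 0.134) or any 1 of the Ath+HF 68w arrays. Ccl1, a ligand of Ccr8, was higher in Ath+HF 68w than in Ath+HF 38w (0.29, adjusted p = 0.0416), a call lost under 5 of the 6 leave-outs. The same comparison called the mucosal chemokine Cxcl17 (0.87, adjusted p = 0.00107). Ccl25, which guides cells to the gut through Ccr9, was lower with BCAA at 68w (-0.43, adjusted p = 0.0235), a call lost under 5 of the 6 leave-outs (adjusted p of 0.0561 to 0.0856). Its clusters did not move alike, since the dimmer one fell from 7.95 in basal diet to 7.35 in Ath+HF 68w while the brighter one was 8.11 and 8.24.

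A few receptors went the other way. Ccr10, a receptor of skin and mucosal lymphocytes, had signals of 6.65, 6.71 and 6.72 in the basal diet arrays, 6.71, 6.79 and 6.58 in Ath+HF 38w, 6.79, 6.89 and 6.74 in Ath+HF+BCAA 38w, 7.28, 7.18 and 7.16 in Ath+HF 68w, and 6.79, 6.80 and 6.83 in Ath+HF+BCAA 68w. The Ath+HF 68w arrays lay above all others, which lay close together. Ccr10 was higher in Ath+HF 68w than in basal diet by 0.51 (standard error 0.08, adjusted p = 0.00039) and lower with BCAA at 68w by 0.40 (standard error 0.08, adjusted p = 0.00174). For Ccr3 the 68w groups differed by -0.31 (adjusted p = 0.0445), a call lost when any 1 of the 6 arrays was left out (adjusted p of 0.0584 to 0.131), and 68w differed from 38w with BCAA by -0.43 (adjusted p = 0.00735).

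Of the 4 atypical receptors, Ackr2 and Ackr4 were called and Ackr1 and Ackr3 were not. Ackr2, which degrades inflammatory CC chemokines, had signals of 7.65, 7.49 and 7.43 in the basal diet arrays, 7.28, 7.42 and 7.34 in Ath+HF 38w, 7.51, 7.56 and 7.36 in Ath+HF+BCAA 38w, 7.73, 7.80 and 8.24 in Ath+HF 68w, and 7.62, 7.70 and 7.87 in Ath+HF+BCAA 68w. Ath+HF 68w lay above Ath+HF 38w, by 0.58 (standard error 0.13, adjusted p = 0.0025), and above basal diet by 0.40 (adjusted p = 0.0203). The latter call was lost without its replicate 3 (0.24, adjusted p = 0.111) or basal diet replicate 2 or 3. Ackr4, which removes Ccl19, Ccl21 and Ccl25, had signals of 7.03, 6.65 and 7.11 in the basal diet arrays, 6.94, 6.66 and 6.90 in Ath+HF 38w, 6.89, 7.00 and 6.31 in Ath+HF+BCAA 38w, 7.36, 7.40 and 7.19 in Ath+HF 68w, and 6.67, 6.84 and 6.77 in Ath+HF+BCAA 68w. Ath+HF 68w held the highest arrays and lay above both Ath+HF+BCAA 68w and Ath+HF 38w. Ackr4 was lower with BCAA at 68w by 0.56 (standard error 0.16, adjusted p = 0.0134), a call lost without replicate 1 of Ath+HF+BCAA 68w (adjusted p = 0.0505). Ackr1, which binds many chemokines on red blood cells and venular endothelium, had signals of 6.80, 6.74 and 6.83 in the basal diet arrays, 6.90, 6.88 and 6.67 in Ath+HF 38w, 7.03, 7.04 and 6.99 in Ath+HF+BCAA 38w, 6.77, 6.76 and 6.76 in Ath+HF 68w, and 6.86, 6.96 and 7.01 in Ath+HF+BCAA 68w. Its arrays spanned less than those of the other atypical receptors, and it was not called. Ackr3, which scavenges Cxcl12, had signals of 6.40, 6.01 and 5.98 in the basal diet arrays, 6.16, 6.08 and 6.23 in Ath+HF 38w, 6.68, 6.22 and 6.93 in Ath+HF+BCAA 38w, 6.24, 6.33 and 6.26 in Ath+HF 68w, and 6.21, 6.33 and 6.76 in Ath+HF+BCAA 68w. Its groups overlapped in most comparisons, and it was not called.

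Ligands and receptors were also set side by side as known pairs, 30 of which had both partners measured. These include Cxcl11 with Cxcr3, although Cxcl11 is not listed as protein-coding. Ligand and receptor were both higher with BCAA at 68w for 10 pairs, and for 10 also without any 1 of the arrays. The 10 were Ccl2 and Ccl7 with Ccr2, Ccl3, Ccl5, Ccl6 and Ccl9 with Ccr1, Cxcl1 and Cxcl2 with Cxcr2, Cxcl16 with Cxcr6, and Cx3cl1 with Cx3cr1. A single receptor serves several ligands, so the pairs are not independent, and 19.8% of all genes were higher in this comparison. In the Ath+HF group, where 20.0% of all genes were lower at 68w than at 38w, both partners were lower for 6 pairs. They were the 4 pairs with Ccr1 and the 2 pairs of Cxcl1 and Cxcl2 with Cxcr2. The number of such pairs was 4 to 7 with 1 array left out and 9 under either other scaling, and the 2 pairs with Cxcr2 rest on its fall, which was lost under 4 of 6 leave-outs. Against basal diet both were higher for 2 pairs in Ath+HF 38w, 4 in Ath+HF+BCAA 38w, 3 in Ath+HF 68w and 12 in Ath+HF+BCAA 68w, comparisons that share the basal diet arrays. Of all genes, 3.05%, 3.67%, 19.0% and 22.9% were higher in these comparisons, so the pair counts cannot be compared between the ages. The counts at 38w rest on single arrays. With 1 array left out they ran from 0 to 3 in Ath+HF 38w, with 0 without its replicate 2 and 1 without its replicate 3 or basal diet replicate 2 or 3, and from 0 to 6 in Ath+HF+BCAA 38w, with 0 without its replicate 1 and 1 without basal diet replicate 2 or 3. In Ath+HF 68w the 3 pairs became 0 with array medians set equal, 1 with quantile normalization, and 1 without its replicate 2 or basal diet replicate 3. In Ath+HF+BCAA 68w the 12 became 9 without its replicate 2 and ran from 9 to 13 over the arrays left out. With quantile normalization the 2 pairs in Ath+HF 38w became 0, and with array medians set equal 1. One pair was called in opposite directions, Ccl12 (lower) with Ccr2 (higher) in Ath+HF+BCAA 68w, and the call of Ccl12 was lost without replicate 2 (adjusted p = 0.0632).

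Genes that act behind the receptors or ahead of the chemokine genes were counted from lists of known members. These lists were set with earlier results of these data known, so their counts are not independent support. Of 35 measured genes of receptor signaling, 28 were higher and 0 lower with BCAA at 68w (26 and 0 without replicate 2 of Ath+HF+BCAA 68w), where 19.8% of all genes were higher and 16.4% lower, and their median was 0.85 against -0.09 over all genes. The guanine nucleotide exchange proteins Vav1 (2.25, adjusted p = 3.66e-08) and Dock2 (2.41, adjusted p = 2.82e-08), the Dock2 partner Elmo1 (1.85, adjusted p = 1.77e-08), and Rgs2, which shortens G protein signals (2.49, adjusted p = 6.84e-09), had the smallest p-values. In the Ath+HF group 21 of these genes were lower and 2 higher at 68w than at 38w, where 20.0% of all genes were lower and 17.6% higher, and 14 to 20 were lower with 1 array left out. Of 28 genes that induce chemokines, such as NF-kappaB subunits, cytokines and their receptors, 19 were higher and 2 lower with BCAA at 68w, against the same 19.8% and 16.4% of all genes. The interferon gamma receptor Ifngr1 (1.57, adjusted p = 1.07e-08), the interferon regulatory factors Irf8 (1.83, adjusted p = 9.48e-08) and Irf5 (1.37, adjusted p = 1.9e-07), and the cytokine Il1a (2.07, adjusted p = 8.86e-07) led this list. The mean of the NF-kappaB subunit Rela was lower in Ath+HF+BCAA 68w than in Ath+HF 68w (9.65 against 10.08). So was that of Myd88 (9.53 against 9.95). Among 13 other chemokine ligands and handlers, 6 were higher and 1 lower in this comparison (5 and 1 without replicate 2), including Cd74, the Mif receptor and class II invariant chain (3.05, adjusted p = 5.58e-08), and Cmklr1, the chemerin receptor (1.63, adjusted p = 1.17e-07).

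Cell type markers were counted beside the chemokine genes, from lists also set with earlier results of these data known. The mean of 14 macrophage and monocyte markers was 8.64 to 8.67 in the basal diet arrays, 9.49 to 9.82 in Ath+HF 38w, 9.33 to 9.75 in Ath+HF+BCAA 38w, 7.87 to 7.99 in Ath+HF 68w and 9.88 to 10.36 in Ath+HF+BCAA 68w. As for Cxcl16, Ath+HF 68w was lowest and Ath+HF+BCAA 68w highest. With BCAA at 68w, 13 of the 14 were higher and 0 lower, led by Cybb (3.45, adjusted p = 3.86e-10) and Cd68 (2.61, adjusted p = 2.39e-09), and 13 were lower at 68w than at 38w in the Ath+HF group. In the comparison of the 68w groups, 3 of 5 resident Kupffer cell markers, 6 of 8 dendritic cell markers, 7 of 16 T and NK cell markers, 2 of 7 B and plasma cell markers, 8 of 10 endothelial markers, 9 of 11 stellate cell markers and 4 of 5 cholangiocyte markers were higher, and 0 of each were lower, where 19.8% of all genes were higher and 16.4% lower. The B and plasma cell count is near this background. Without replicate 2 of Ath+HF+BCAA 68w, 3 T and NK cell markers were higher and 1 lower, 1 B and plasma cell marker, 4 dendritic cell markers, 6 endothelial markers and 3 cholangiocyte markers were higher, and the macrophage, Kupffer and stellate cell counts were 13, 3 and 9 as before. The T and NK cell count was also 3 without replicate 3 of Ath+HF 68w. Of 8 hepatocyte markers, 0 were higher and 3 lower, or 1 lower without replicate 2. The part of these cells in the chemokine differences was not tested.

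**Figure D5:**
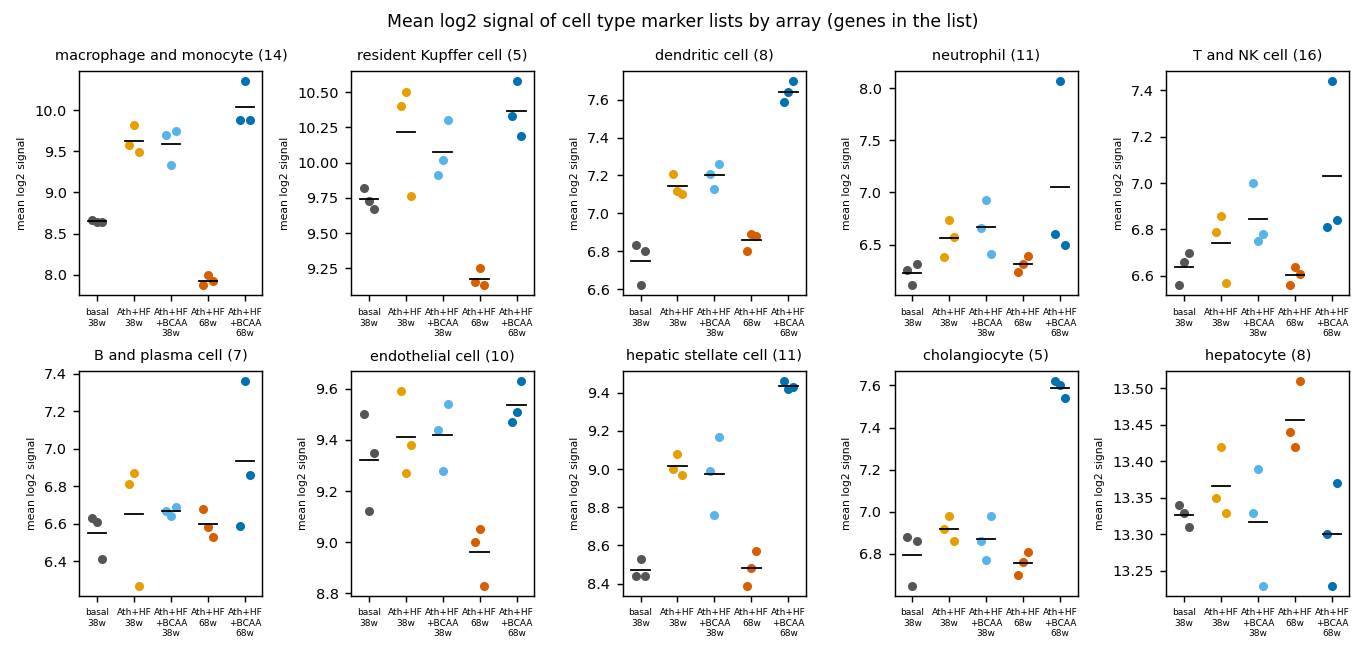
Mean log2 signal over each list of cell type markers (vertical, scale differs by panel, number of genes in parentheses) in each array (points) of the 5 labelled groups, with the group mean as a line. Macrophage and monocyte markers run from 7.87 in Ath+HF 68w to 10.36 in Ath+HF+BCAA 68w, and 1 Ath+HF+BCAA 68w array, replicate 2, lies apart for neutrophil markers at 8.07.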

How the data were processed

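Liver RNA was measured on 15 Mouse Gene 1.0 ST arrays, 3 for each of 5 groups given by the labels. The authors obtained the deposited log2 values with RMA in Affymetrix Expression Console (version not given in the sources used here). RMA sets arrays to a common distribution, so that a change shared by most genes would be hidden, but the array medians still differed. The number of arrays limits the precision.

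Symbols came from the platform annotation: of 35556 transcript clusters, 21789 had 1 symbol, 1621 several and 12146 none. Clusters with 1 symbol gave 19938 genes, each by its brightest cluster (999 genes had several). limma 3.58.1 in R 4.3.3 fitted 1 coefficient per group (10 residual degrees of freedom) and 9 comparisons, two-sided, with Benjamini-Hochberg adjustment over all genes and calls at an adjusted p under 0.05. The fit was tested on simulated data.

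The 54 genes were taken by symbol, and they and the lists of pathway genes and markers were chosen with earlier results of these data known. Values in every array are given for fixed ligand and receptor pairs, the atypical receptors, the 10 called genes with the largest difference between the 68w groups and 5 in each other comparison. Pathway lists and markers name at most 4 called genes. Genes named beyond these were chosen after their values were seen. Motifs were searched in RefSeq promoter windows (build GRCm38.p6). No source used here names the build behind the array annotation, so no gene coordinates are given beside those windows.

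Alternatives were other scalings, cluster, filter and variance choices, array weights, adjustment over all clusters, the groups alone, the replicate number as a block, the variance analysis named in the methods with its Bonferroni correction, and leaving out each array in turn.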

Additional observations from a re-analysis of the deposited data

Results flagged for a closer look

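The difference between the groups labelled Ath+HF+BCAA and Ath+HF was not the same at both ages for 20 of the 54 genes, by the interaction term in limma (adjusted p under 0.05). The values here are the log2 difference at 68w minus that at 38w. Among the ligands, Ccl5 stood at 2.55, Ccl6 at 2.47, Cxcl16 at 2.29, Ccl2 at 2.24, Ccl3 at 2.22, Cxcl10 at 2.20, Cx3cl1 at 1.15, Ccl9 at 1.11 and Cxcl14 at 0.95. The ligands Ccl7 at 0.77, Cxcl1 at 0.75, Ccl20 at 0.71 and Ccl19 at 0.50 followed. Among the receptors, Ccr2 stood at 1.78, Cxcr4 at 1.65, Cxcr2 at 1.30, Cx3cr1 at 1.07 and Ccr1 at 0.88. Ccr3 at -0.49 and Ccr10 at -0.51 had the opposite sign. Without replicate 2 of Ath+HF+BCAA 68w, the calls of Ccl19, Ccr1, Ccr3 and Cxcr2 were lost (adjusted p of 0.0662, 0.0899, 0.0726 and 0.083), and Ccl7, Ccl20 and Cxcl1 lost theirs without at least 1 other array. The remaining 13 calls were kept in every alternative. Over the macrophage and monocyte markers, 13 of 14 had a higher difference at 68w by the same term, with a median of 2.17 (12.9% of all genes were higher), and their part in the chemokine differences was not tested.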

How the results depend on the processing

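Calls kept in every alternative were 7 of 11 in Ath+HF 38w, 7 of 12 in Ath+HF+BCAA 38w, 1 of 17 in Ath+HF 68w and 21 of 26 in Ath+HF+BCAA 68w, each against basal diet, 16 of 25 between the 68w groups, 11 of 19 between the ages in Ath+HF, 13 of 16 between the ages in Ath+HF+BCAA, and 13 of 20 for the interaction. Counts below are of the 54 genes, and the cause of a move was not tested. In Ath+HF 68w against basal diet, medians set equal gave 1 higher and 4 lower, quantile normalization 4 and 3, the methods' analysis of variance 4 and 0, the groups alone 3 lower, array weights 2 lower and a variance trend with a robust fit 0 lower. In Ath+HF+BCAA 68w against basal diet, the lower genes were 7 with medians set equal, 2 with quantile normalization, array weights or the mean of clusters, and 0 with the variance trend, the analysis of variance or adjustment over all clusters. Against basal diet at 38w, 1 gene was lower in both groups with dim genes left out, medians set equal or quantile normalization, and in Ath+HF also with the variance trend or the replicate block. The groups alone gave 7 higher in Ath+HF+BCAA 38w. Between the 68w groups the analysis of variance gave 1 lower. Between the ages, array weights gave 10 higher and the analysis of variance 7 lower in Ath+HF, and in Ath+HF+BCAA the lower genes were 3 with medians set equal, 2 with array weights and 0 with dim genes left out. For the interaction, 1 was lower with dim genes left out, the variance trend, the replicate block or adjustment over all clusters. Leaving out 1 array gave, higher and lower, 8 to 12 and 0 to 2 in Ath+HF 38w, 7 to 17 and 0 to 1 in Ath+HF+BCAA 38w, 7 to 13 and 0 to 2 in Ath+HF 68w, 21 to 26 and 0 to 2 in Ath+HF+BCAA 68w, 0 and 0 between the 38w groups, 18 to 19 and 3 to 5 between the 68w groups, 4 to 8 and 10 to 13 between the ages in Ath+HF, 14 to 15 and 1 to 3 in Ath+HF+BCAA, and 13 to 18 and 1 to 3 for the interaction.

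Cxcl12, which was not called, changed sign in Ath+HF 68w against basal diet, to 0.07 with quantile normalization, 0.01 with array weights, 0.10 without basal diet replicate 1 and 0.11 without Ath+HF 68w replicate 3 (from -0.17 to 0.11 over arrays left out). Cxcl13 changed sign between the 68w groups, to 0.21 and 0.03 without replicates 1 and 3 of Ath+HF+BCAA 68w (from -1.85 to 0.21 over arrays left out). Replicate numbers did not pair the arrays: correlations of same-numbered arrays' deviations from their group means ran from -0.16 to 0.18, and 5 of 15 arrays correlated best with their own number. With the replicate number as a block, 19 genes were higher and 5 lower between the 68w groups. Genes near the background and 3 arrays per group limit what could be called.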
